A study of Homo sapiens with 9 samples.

Results

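Messenger RNAs of 2 enzyme families of the ubiquitin system, the E2 ubiquitin-conjugating enzymes (UBE2 genes) and the ubiquitin-specific proteases (USP genes), were followed through pulldowns of the guidance receptors DCC and Neuropilin-1 (Nrp1). Members were taken by symbol alone. Of the 42785 genes listed in the count files, 85 symbols fitted the pattern, and 83 of these were kept, 33 UBE2 and 50 USP genes. USP41, which RefSeq lists as a pseudogene, and USP9Y, which lies on chromosome Y, were left out. The samples came from SH-SY5Y, an established human neuroblastoma line grown in medium with serum, and the labels give no treatment or genetic change. DCC-IP holds RNA co-precipitated with a mouse antibody to endogenous DCC, the Netrin-1 receptor, Nrp1-IP holds RNA co-precipitated with a rabbit antibody to endogenous Nrp1, the Sema3A receptor, and Input holds RNA of the lysate before pulldown, with 3 libraries each. All 9 libraries share the same cell line and a cDNA amplification developed for single cells, and no pulldown with a control antibody was analysed here.

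Ubiquitin is activated by an E1 enzyme, handed to an E2 enzyme and attached to its target with the help of an E3 ligase. The E2 decides in part which chain is built, and some E2 enzymes carry the related modifiers SUMO, NEDD8 or ISG15 in place of ubiquitin. USP proteins are the largest family of deubiquitinases and take ubiquitin off again, from proteins bound for the proteasome, from receptors on endosomes or from histones. In neurons the balance of both activities is known for its part in axon growth, branching and receptor turnover.

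Libraries held 8838296 to 11055895 counts on genes, and 3 counts, used as the detection floor, equal 0.271 to 0.339 CPM, the counts relative to the library's total. MAP1B held 40.3% to 52.1% of the gene counts of each DCC-IP library and 1.58% to 2.44% of those of the others. CPM values were scaled with edgeR's TMM method, with factors of 0.743, 1.06 and 1.42 in DCC-IP and 0.796, 0.899 and 0.797 in Input. The factors of DCC-IP replicates 2 and 3 exceeded all Input factors, so TMM-scaled levels in DCC-IP should not be read as corrected for MAP1B. More than 3 counts were found on 4674 genes in DCC-IP replicate 1, the fewest of all libraries, and on 9720 genes in Nrp1-IP replicate 3, the most. Of 12 neuroblastoma and sympathoadrenal marker genes, 11 had more than 3 counts in at least 1 library. Only 6 of the 12 had more than 3 counts in all Input libraries. ISL1 and GATA3 had more than 3 counts in every library, DBH had 2 in Input replicate 1, and TH was at 0 throughout. Summed over the list, the 12 genes gave 1821 to 3308 CPM in DCC-IP, 1178 to 1513 in Nrp1-IP and 231 to 434 in Input, mostly ISL1. Their part in the results below was not tested. All 4 glial markers were at 0, 0 of 4 blood markers passed the floor, and of 6 mesenchymal markers COL1A2 and COL3A1 were at 0 and 4 passed in some library. Among those 4, PDGFRA had between 91 and 1097 counts in every library. The methods describe independent biological replicates for the experiments in general, but the labels do not say how these libraries were replicated, so p-values measure the spread between these libraries, which may in part be technical, and a share of counts in such bulk libraries cannot tell fewer cells from less RNA per cell.

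Counts were spread very unevenly over the 83 genes. More than 3 counts were found on 72 genes in at least 1 library, on 26 of these in every library, and on 11 genes in no library. At least 100 counts in every library were found on 10 genes, which were UBE2B, UBE2D4, UBE2G1, UBE2N, UBE2W, USP2, USP4, USP7, USP22 and USP31. Not a single count fell on UBE2L6, UBE2U, UBE2V1, USP27X and USP43, and UBE2E2, UBE2L3, UBE2Q1, USP29, USP45 and USP47 stayed at or under the floor. Per library, 37 to 58 of the 83 genes passed the floor, with 37, 56 and 55 in Input, 39, 53 and 58 in DCC-IP and 51, 50 and 57 in Nrp1-IP.

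**Figure D1:**
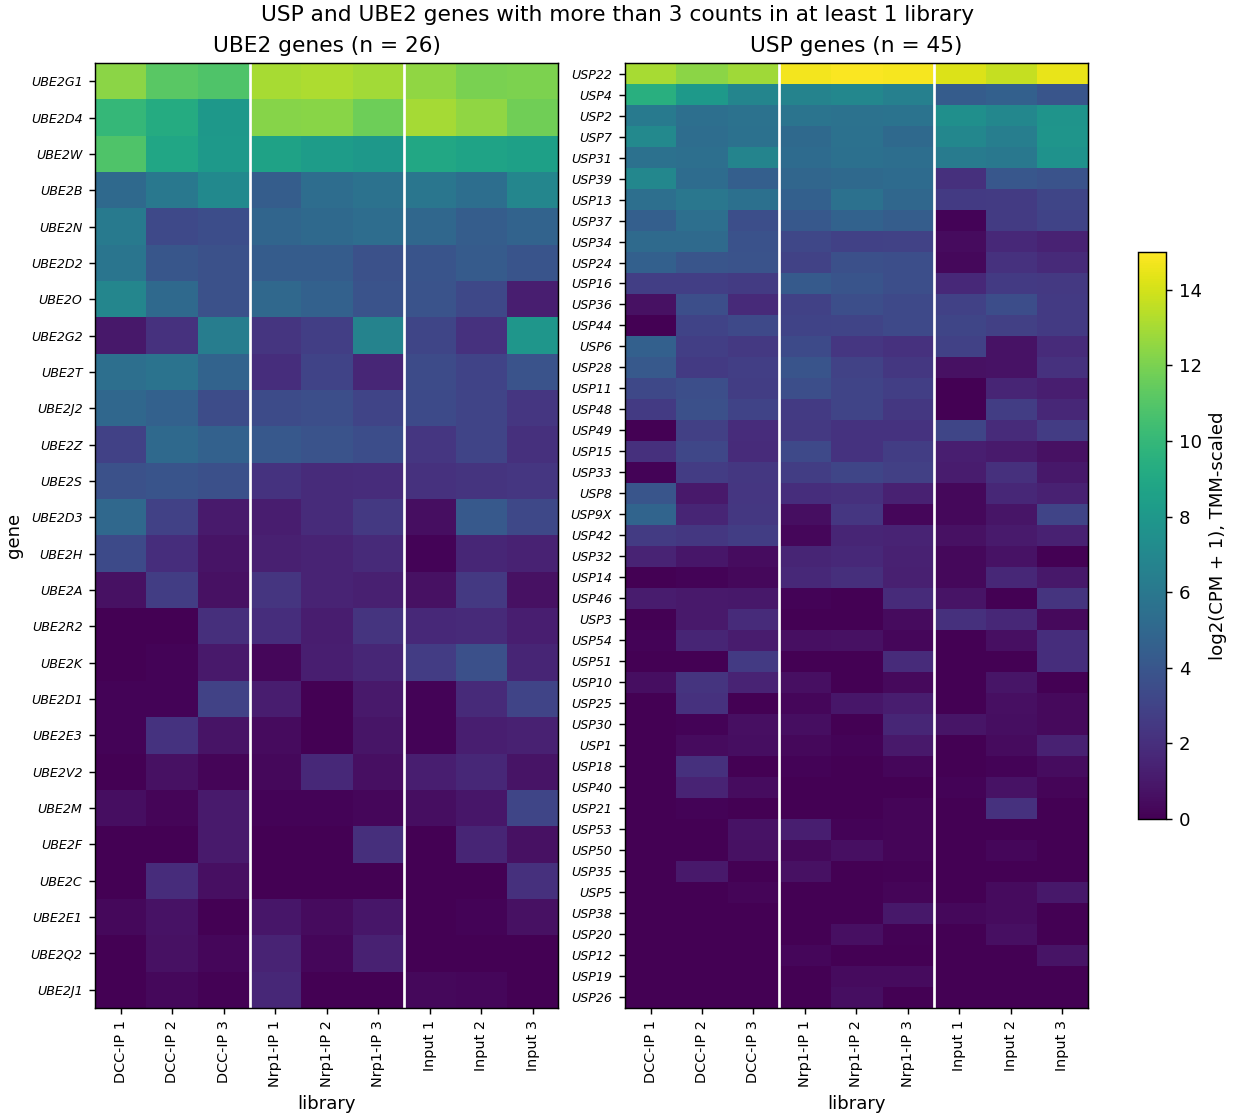
Level of each gene in each library as log2(CPM + 1), TMM-scaled, for 26 UBE2 genes and 45 USP genes with more than 3 counts in at least 1 library, ordered by mean level, with white lines between the groups. USP22 is the brightest row in all 9 libraries, and UBE2G2 is bright in replicate 3 of each group.

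USP22, UBE2G1 and UBE2D4 together drew most of the counts. The 83 genes held 4.93% ± 0.220 of all gene counts in Nrp1-IP, 2.48% ± 0.274 in Input and 1.30% ± 0.259 in DCC-IP (SD, n = 3 each). Without MAP1B in the total, the same shares were 5.03% ± 0.227 in Nrp1-IP, 2.53% ± 0.277 in Input and 2.46% ± 0.303 in DCC-IP, so that DCC-IP and Input differed by less than their spread. The 80 genes other than USP22, UBE2G1 and UBE2D4 held 0.108% to 0.113% of the gene counts in Nrp1-IP, 0.0865% to 0.125% in Input and 0.152% to 0.265% in DCC-IP.

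**Figure D2:**
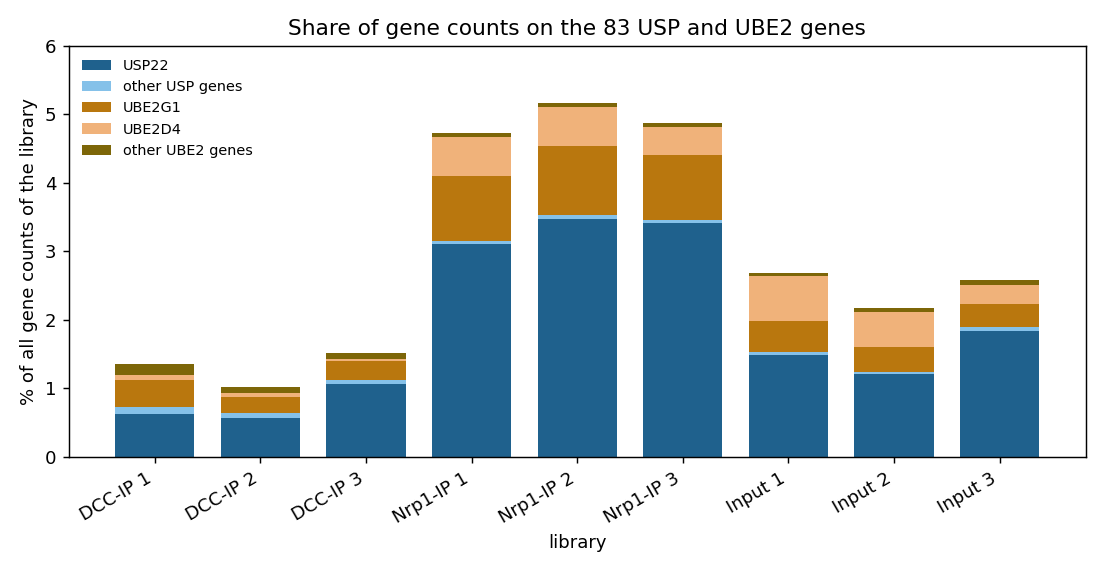
Share of all gene counts of each library, in percent, that fell on USP22, UBE2G1, UBE2D4, the other USP genes and the other UBE2 genes, stacked as bars from 0. The 3 Nrp1-IP bars reach 4.73% to 5.17%, above every Input bar (2.17% to 2.69%) and every DCC-IP bar (1.01% to 1.52%), and USP22 is the tallest segment in each.

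USP22 encodes the deubiquitinase of the SAGA transcription coactivator complex, which takes ubiquitin off histone H2B. It drew 301265, 349480 and 373576 counts in Nrp1-IP, 68691, 61925 and 109561 in DCC-IP and 159047, 120856 and 162304 in Input. The 3 groups did not overlap in counts or in CPM, with Nrp1-IP highest and DCC-IP lowest. Taken as a share of gene counts without MAP1B, DCC-IP (1.17% to 1.77%) and Input (1.23% to 1.87%) overlapped, with means of 1.39% ± 0.329 and 1.54% ± 0.321 (SD, n = 3 each), and Nrp1-IP remained above both. Among all genes USP22 ranked 2, 1 and 1 by counts in the Nrp1-IP libraries, 7, 8 and 3 in DCC-IP and 10, 15 and 6 in Input. Its high rank in Nrp1-IP was known when these genes were chosen. Scaled over the 9 libraries, its level was 28672 ± 2117 CPM in Nrp1-IP, 18382 ± 4853 in Input and 7042 ± 1592 in DCC-IP (SD, n = 3 each). The paralogs of USP22 were scarcely seen, with USP27X at 0 and USP51 at 0 in all libraries but the replicate 3 of each group, where it had 73, 35 and 20 counts in DCC-IP, Nrp1-IP and Input.

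UBE2G1 encodes an E2 enzyme that extends K48-linked chains, the chain type that marks proteins for the proteasome. Its counts were 92531, 101483 and 103184 in Nrp1-IP, 43535, 26555 and 28081 in DCC-IP and 48688, 36590 and 29757 in Input. Every Nrp1-IP library lay above every other library, while DCC-IP and Input overlapped. The means were 8345 ± 653 CPM with Nrp1, 4669 ± 928 in Input and 3166 ± 1877 with DCC (SD, n = 3 each).

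UBE2D4 belongs to the UBE2D enzymes, which work with a wide range of E3 ligases. It had 55048, 57777 and 44722 counts in Nrp1-IP, 69633, 51957 and 24668 in Input and 8451, 6929 and 3824 in DCC-IP. Nrp1-IP and Input overlapped, and both lay above all 3 DCC-IP libraries. Means were 4472 ± 982 CPM in Nrp1-IP, 5817 ± 2350 in Input and 628 ± 388 in DCC-IP (SD, n = 3 each). Of the reads on the 4 UBE2D genes, 99.2% to 99.8% in Input, 99.5% to 99.6% in Nrp1-IP and 92.2% to 96.5% in DCC-IP fell on UBE2D4, as counts not divided by gene length. The other 3 genes, UBE2D1, UBE2D2 and UBE2D3, shared between 123 and 717 counts per library. The UBE2D genes are close in coding sequence, and multi-mapped reads (2.83% to 3.83% per library) were counted on no gene, so the split of reads among the 4 is uncertain.

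**Figure D3:**
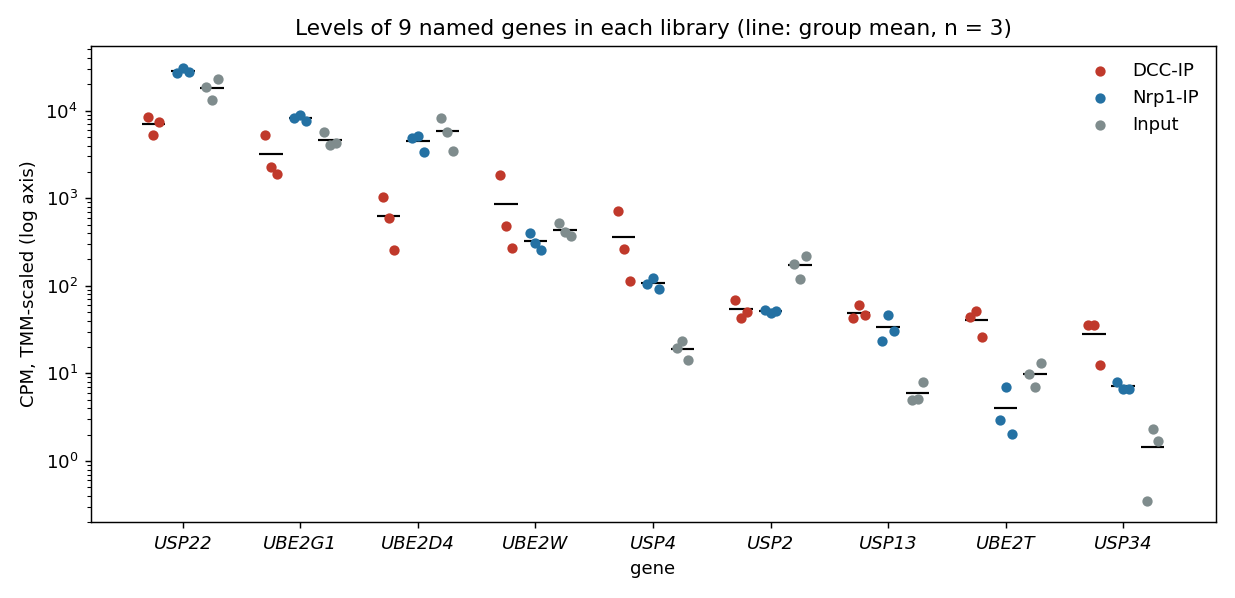
Level of 9 genes in each library, in TMM-scaled CPM on a log axis, with 1 point per library, coloured by group, and a line at each group mean (n = 3). USP22 separates all 3 groups, UBE2D4 lies lowest in DCC-IP, and USP4, USP13 and USP34 lie lowest in Input.

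The first comparison asked which of these mRNAs came down differently with the 2 receptors. USP22 and UBE2D4 were higher in Nrp1-IP and UBE2T was higher in DCC-IP. With edgeR (quasi-likelihood test, Benjamini-Hochberg adjustment over all 6439 genes tested), Nrp1-IP over DCC-IP had a log2 fold change of 1.99 for USP22 (SE 0.25, adjusted p = 0.00303) and 2.83 for UBE2D4 (SE 0.46, adjusted p = 0.0103). UBE2T, the E2 enzyme of the Fanconi anaemia DNA repair pathway, had 83, 64 and 92 counts in Input, 362, 599 and 389 in DCC-IP and 33, 79 and 27 in Nrp1-IP. Its log2 fold change was -3.39 (SE 0.76, adjusted p = 0.0429), a 10.5-fold higher level in DCC-IP, and DCC-IP and Nrp1-IP did not overlap. Of the 83 genes, 47 passed the filter on low counts, and 3 of these were called at an adjusted p under 0.05 (6.38%, against 3.65% of all genes tested). The 2 called higher in Nrp1-IP stand against a background of 2.56%, and the 1 called higher in DCC-IP against 1.09%. Each of these shares rests on 1 or 2 genes, and USP22 was known to rank high in Nrp1-IP when the genes were chosen. The median log2 fold change was -0.63 over the 47 genes and -0.27 over all genes tested, and 16 of the 47 were above 0 (42.6% of all genes tested). An unadjusted p under 0.05 was reached by 4 genes with Nrp1-IP higher and 5 with DCC-IP higher, where 7.87% and 9.49% of all genes tested reached it.

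UBE2G1 came next, with a log2 fold change of 1.40 (SE 0.35, adjusted p = 0.0614 by the same test), short of the threshold. Its call turned on the setting, since it passed with at least 10 counts in every library, no filter, library size only, MAP1B left out, DESeq2, all 9 libraries or the replicate block (adjusted p 0.000225 to 0.0479), missed with RLE factors (0.069) and passed in 2 of the 6 fits that left out 1 library, those without DCC-IP replicate 1 or 3. UBE2S, which extends K11-linked chains for the anaphase-promoting complex, had 100, 163 and 169 counts in DCC-IP against 41, 30 and 37 in Nrp1-IP, without overlap in CPM (log2 fold change -2.11, adjusted p = 0.210). Groups of libraries did not overlap for 6 of the 47 genes with Nrp1-IP higher (14.4% of all genes tested) and for 5 with DCC-IP higher (11.7%), shares close to these backgrounds. The call on USP22 held in all 6 fits that left out 1 library (adjusted p 0.00217 to 0.042). That on UBE2D4 was lost without Nrp1-IP replicate 1 (log2 fold change 2.72 to 3.52 over the 6 fits, highest adjusted p = 0.0672), and that on UBE2T was lost in each of the 6 fits (log2 fold change -4.08 to -3.04, adjusted p 0.0577 to 0.314) and with MAP1B left out of the table.

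The second comparison set DCC-IP against Input. USP4, USP13 and USP34 were higher in DCC-IP than in Input, and USP22 and UBE2D4 were lower. USP4, a deubiquitinase studied in TGF-β and p53 signalling, had 167, 212 and 100 counts in Input, 5797, 3102 and 1654 in DCC-IP and 1165, 1393 and 1225 in Nrp1-IP. All 6 pulldown libraries lay above the 3 Input libraries, and the DCC-IP libraries spread widely (362 ± 310 CPM, SD, n = 3). Relative to the lysate, USP4 rose by a log2 fold change of 4.10 with DCC (SE 0.67, adjusted p = 0.0131, quasi-likelihood test of edgeR), or 17.1-fold. USP13, a close relative of the free-chain protease USP5, had 42, 46 and 56 counts in Input, 350, 703 and 678 in DCC-IP and 260, 528 and 411 in Nrp1-IP. Its pulldown libraries all lay above Input as well, and the DCC-IP rise was 3.14 on the log2 scale (SE 0.67, adjusted p = 0.0346). USP34, a very large deubiquitinase that acts on axin in Wnt signalling, had 3, 21 and 12 counts in Input, 290, 421 and 186 in DCC-IP and 90, 74 and 90 in Nrp1-IP, with Input replicate 1 at the floor (DCC-IP over Input log2 fold change 4.24, SE 1.01, adjusted p = 0.0493).

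On the other side, UBE2D4 fell by 3.32 on the log2 scale in DCC-IP (SE 0.51, adjusted p = 0.011 from the same test), a 9.97-fold lower level than in Input, and USP22 fell by 1.32 (SE 0.28, adjusted p = 0.0346), a 2.50-fold lower level. The call on USP22 ended with RLE factors, library size only, MAP1B left out, no filter or DESeq2 (log2 fold change -1.42 to -1.01, adjusted p 0.0574 to 0.169), and that on UBE2D4 ended with MAP1B left out (-2.93, adjusted p = 0.0549). USP13 and USP34 also missed with RLE factors (adjusted p = 0.0537 and 0.0586) or MAP1B left out (0.0576 and 0.0613), and USP13 with no filter (0.0621). USP2, a deubiquitinase with circadian expression in many tissues, had 567, 505 and 739 counts in DCC-IP and 1506, 1084 and 1534 in Input, with no overlap, and its log2 fold change of -1.62 missed the threshold (SE 0.46, adjusted p = 0.0806). Between DCC-IP and Input, deviations of same-numbered libraries correlated at 0.421 in replicate 3 but only at 0.117 and 0.187 in replicates 1 and 2. Input replicate 1 correlated better with DCC-IP replicate 2 (0.136). With the replicate number as a block USP2 passed (-1.61, adjusted p = 0.0242), as did UBE2O, a large hybrid of E2 and E3 (2.75, adjusted p = 0.0387). UBE2O had 964, 401 and 176 counts in DCC-IP and 115, 77 and 10 in Input, with overlap in CPM. It was highest in replicate 1 of every group, and without the block the same test gave 2.57 (adjusted p = 0.197). The 5 calls made without the block held, so that 7 of 45 genes were called with it (15.6%, against 11.5% of all genes tested), 4 of them higher (3.82% of all genes tested) and 3 lower (7.67%).

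Without the block, 5 of the 45 genes that passed the filter in DCC-IP and Input were called (11.1%, against 4.98% of all 6223 genes tested). The 3 called higher compare with a background of 1.46%, and the 2 called lower with 3.52%. The libraries did not overlap for 14 genes with DCC-IP higher (15.7% of all genes tested) and for 4 with DCC-IP lower (17.8% of all genes tested). An unadjusted p under 0.05 was reached by 8 genes with DCC-IP higher (10.8% of all genes tested) and 3 with DCC-IP lower (11.1%). These calls rested on few libraries. Over the 6 fits that left out 1 library, USP4 and UBE2D4 passed in 3 and missed without DCC-IP replicate 1, DCC-IP replicate 2 or Input replicate 1 (highest adjusted p = 0.0975 and 0.131), with log2 fold changes of 3.43 (without DCC-IP replicate 1) to 5.01 (without DCC-IP replicate 3) for USP4 and -3.68 (without DCC-IP replicate 1) to -2.56 (without DCC-IP replicate 3) for UBE2D4. USP34 passed only without DCC-IP replicate 3 (3.76 without Input replicate 1 to 4.96 without DCC-IP replicate 3, highest adjusted p = 0.195), USP22 only without Input replicate 3 (log2 fold change -1.52 to -0.87, highest adjusted p = 0.383) and USP13 in none (0.0623 to 0.191).

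The third comparison set Nrp1-IP against the same 3 Input libraries, so it is not independent of the second. USP4 and USP13 were higher in Nrp1-IP than in Input, and USP2 was lower. The log2 fold change was 2.57 for USP4 (SE 0.39, adjusted p = 0.0172 by edgeR's quasi-likelihood test) and 2.60 for USP13 (SE 0.47, adjusted p = 0.0284), 5.95-fold and 6.05-fold rises. USP2 had 598, 557 and 682 counts in Nrp1-IP, below all Input libraries, with a log2 fold change of -1.65 (SE 0.35, adjusted p = 0.043). Between the receptors, as Nrp1-IP over DCC-IP, USP2 differed by -0.11 with a 95% interval of -1.11 to 0.89, a sign that turned under 7 other settings and without DCC-IP replicate 1 or 3, and USP13 by -0.63 with an interval of -1.83 to 0.56. USP4 differed by -1.73 (interval -3.01 to -0.46) and missed the threshold after adjustment (adjusted p = 0.146), with overlapping libraries. The rise of USP22 over Input, 0.74 on the log2 scale (SE 0.25, adjusted p = 0.144), and that of UBE2G1, 0.91 (SE 0.27, adjusted p = 0.0969), did not pass the threshold, although every Nrp1-IP library exceeded every Input library. UBE2D4 differed from Input by -0.32 (95% interval -1.22 to 0.59), and by 0.10 when scaled by library size alone.

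Of the 45 genes that passed the filter in Nrp1-IP and Input, 3 were called (6.67%, against 4.97% of all 6501 genes tested), all of them USP genes. Among the 21 UBE2 genes tested, edgeR and DESeq2 both called 0, and 2 had an unadjusted p under 0.05. The 2 genes called higher compare with a background of 1.94%, and the 1 called lower with 3.03%. The groups did not overlap for 15 genes with Nrp1-IP higher (17.5% of all genes tested), 13 of them USP genes, and for 4 with Nrp1-IP lower (14.5% of all genes tested). An unadjusted p under 0.05 was reached by 14 genes with Nrp1-IP higher (11.5% of all genes tested) and 3 with Nrp1-IP lower (10.1%). With 1 library left out, USP4 and USP2 passed only without Input replicate 2 or 3 (highest adjusted p = 0.137 and 0.231), and USP13 only without Input replicate 3 (highest 0.181).

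**Figure D4:**
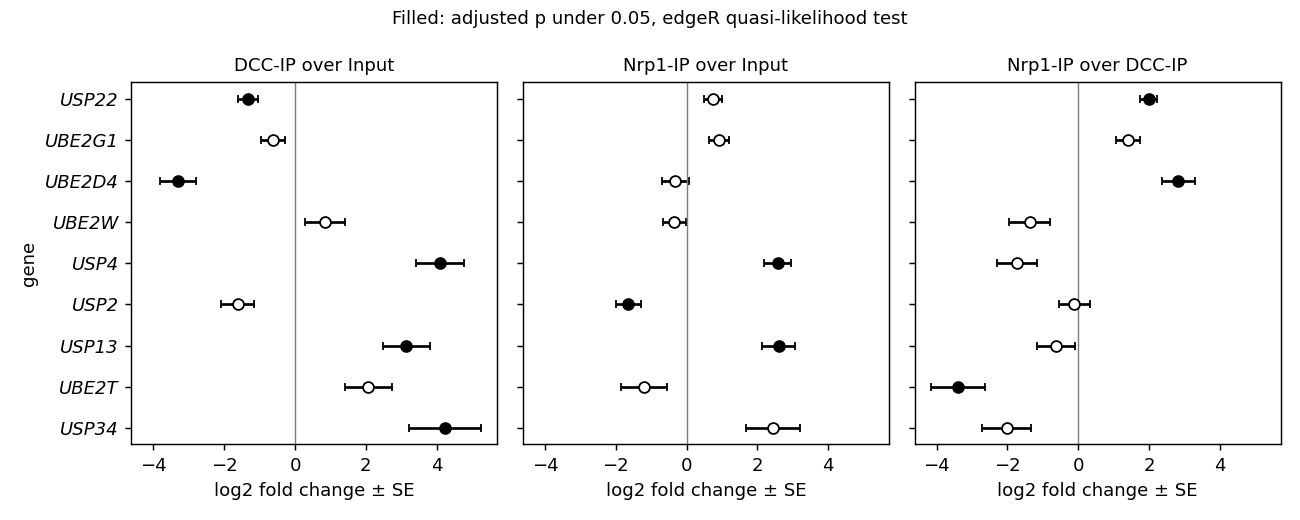
Log2 fold change with its standard error for 9 genes in the 3 comparisons, by edgeR on 3 libraries a group, with filled points at an adjusted p under 0.05. USP4 and USP13 are filled to the right of 0 against Input in both pulldowns, and USP22 and UBE2D4 are filled to the left of 0 in DCC-IP over Input and to the right of 0 in Nrp1-IP over DCC-IP.

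Within the genes tested, USP genes lay above 0 more often than UBE2 genes in Nrp1-IP over Input, while the shares were alike in DCC-IP over Input. In Nrp1-IP, 20 of the 24 USP genes tested had a log2 fold change above 0 (83.3%), as had 9 of the 21 UBE2 genes (42.9%) and 51.8% of all genes tested. The medians were 1.54 for USP genes, -0.32 for UBE2 genes and 0.06 for all genes. In DCC-IP over Input, 17 of 26 USP genes (65.4%) and 12 of 19 UBE2 genes (63.2%) were above 0, against 52.9% of all genes, with medians of 1.68, 0.39 and 0.16. Most of these single changes did not pass the threshold, and both comparisons share the Input libraries. The genes counted here passed a filter that a gene can pass through its higher group alone, so the counts describe these genes only and the families were not tested against each other. Among genes with at least 10 counts in every library, the USP medians dropped to 0.38 over 11 genes in Nrp1-IP and 0.26 over 8 genes in DCC-IP, where the median of all genes was -0.01 and 0.43. Under that filter 9 of 11 UBE2 genes and 4 of 8 USP genes were above 0 in DCC-IP over Input, so the order of the families turned round. In Nrp1-IP over Input, 7 of 13 UBE2 genes (53.8%, median 0.20) and 7 of 11 USP genes (63.6%) were above 0 under it. The gap between the families in Nrp1-IP was thus much smaller among these genes. The UBE2 median in Nrp1-IP over Input was 0.10 when scaled by library size alone, a scaling that moved the median of all genes to 0.44.

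**Figure D5:**
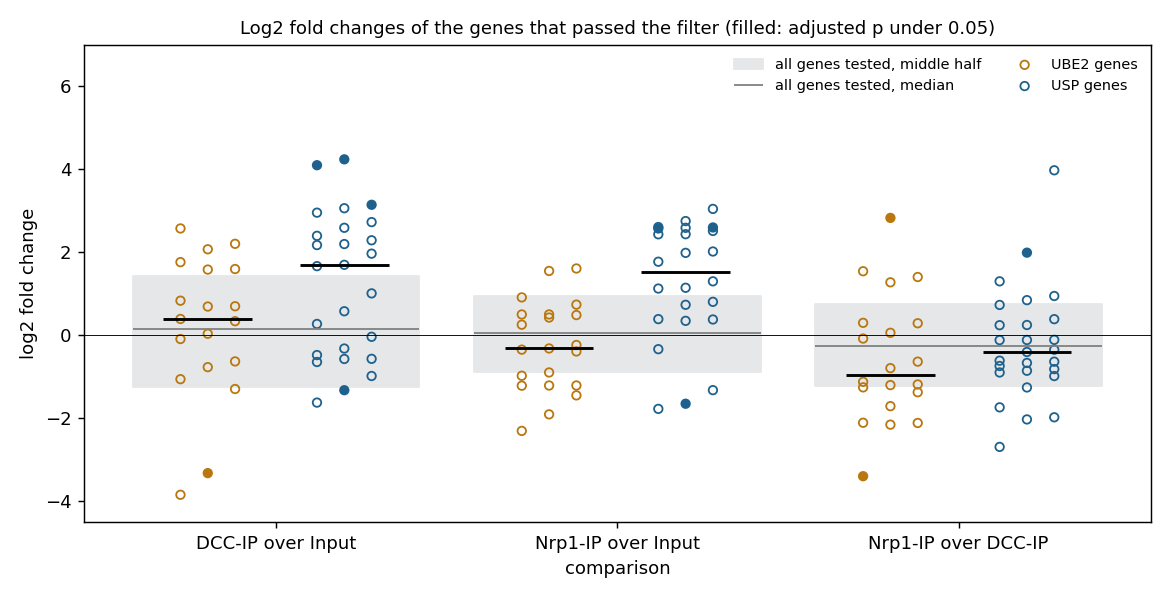
Log2 fold changes of the UBE2 and USP genes that passed the filter, with 1 point per gene, filled at an adjusted p under 0.05, and a black line at each family's median. The grey band and line give the middle 50% and the median of all genes tested, and the USP medians against Input (1.68 and 1.54) lie above both bands in this filter.

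Within the E2 family, the UBE2D and UBE2E enzymes held UBE2D4 and 6 scarce relatives. UBE2D2 had 178 to 450 counts in DCC-IP, 163 to 222 in Nrp1-IP and 96 to 173 in Input, and UBE2D3 had 4 to 155 in Input, 14 to 63 in Nrp1-IP and 17 to 266 in DCC-IP, with overlap. Neither passed the threshold in any comparison (lowest unadjusted p = 0.102 for UBE2D3, edgeR's quasi-likelihood test). The cell cycle E2 enzymes UBE2T and UBE2S both lay above Nrp1-IP in all DCC-IP libraries, while UBE2C, the chain-starting E2 of the anaphase-promoting complex, had 0, 33 and 8 counts in DCC-IP, 0 in all 3 Nrp1-IP libraries and 0, 0 and 23 in Input. Of the E2 enzymes for K48 chains, UBE2K was listed at 46, 106 and 14 counts in Input, 0, 1 and 15 in DCC-IP and 2, 16 and 27 in Nrp1-IP (log2 fold change of Nrp1-IP over Input -2.30, adjusted p = 0.243). UBE2N, which builds K63-linked chains together with the inactive partners UBE2V1 and UBE2V2, had 320 to 539 counts in Nrp1-IP, 103 to 566 in DCC-IP and 182 to 261 in Input, and none of its comparisons passed. UBE2V1 had no count, and UBE2V2 had 26 at most.

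UBE2W attaches ubiquitin to the N-terminus of its targets. It had 4379, 3744 and 2582 counts in Input, 14982, 5576 and 3987 in DCC-IP and 4429, 3490 and 3430 in Nrp1-IP, with DCC-IP replicate 1 far above the rest (mean of DCC-IP 860 ± 848 CPM, SD, n = 3). For Nrp1-IP over DCC-IP the log2 fold change was -1.37 (adjusted p = 0.262), and without DCC-IP replicate 1 it was -0.10. Of the E2 enzymes of ubiquitin-like modifiers, UBE2M and UBE2F, which serve NEDD8, had 54 and 42 counts at most, and UBE2L6, the E2 for ISG15, had 0 in all libraries. Of the E2 enzymes for degradation at the endoplasmic reticulum, UBE2J2 had 148 to 284 counts in DCC-IP, all above Input in CPM (log2 fold change 1.58, adjusted p = 0.293), and UBE2J1 had 25 at most.

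UBE2G2, another E2 of that pathway, followed the replicate number rather than the pulldown. It had 67, 31 and 1636 counts in Input, 8, 39 and 1173 in DCC-IP and 45, 66 and 1370 in Nrp1-IP. Replicate 3 exceeded the other replicates in each group by a wide margin, and no comparison between groups passed (lowest adjusted p = 0.786). UBE2B, which with UBE2A forms the RAD6 pair of DNA damage tolerance, was likewise highest in replicate 3 of each group, with 2041, 653 and 841 counts in DCC-IP, Nrp1-IP and Input. Among the 52 genes of both families that passed a filter on all 9 libraries, 3 were highest in replicate 3 of every group (5.77%, against 14.3% of all 7628 genes that passed).

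Within the USP family, the paralogs USP4, USP11 and USP15 are described together. USP11 had 0, 17 and 10 counts in Input, 69, 128 and 83 in DCC-IP and 123, 83 and 78 in Nrp1-IP, and USP15 had 12, 10 and 4 in Input, 26, 97 and 39 in DCC-IP and 100, 41 and 74 in Nrp1-IP. Only USP4 of the 3 passed the threshold, with log2 fold changes of 3.04 for USP11 (adjusted p = 0.162) and 2.61 for USP15 (adjusted p = 0.0947) in Nrp1-IP over Input. Neither pulldown overlapped with Input for these genes, as for 17.5% of all genes tested in Nrp1-IP over Input and 15.7% in DCC-IP over Input, and USP11 and USP15 were near the floor in Input. USP24 and USP9X are very large deubiquitinases. USP24 had 2, 31 and 17 counts in Input, 194, 167 and 192 in DCC-IP and 75, 133 and 146 in Nrp1-IP (log2 fold change of DCC-IP over Input 3.06, adjusted p = 0.143), and USP9X had 222, 22 and 64 in DCC-IP and 5, 46 and 3 in Nrp1-IP, with overlap. USP39, a splicing factor without protease activity, had 28, 145 and 92 counts in Input, 1011, 449 and 328 in DCC-IP and 330, 377 and 488 in Nrp1-IP, all pulldown libraries above Input in CPM (adjusted p = 0.137 and 0.115).

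Of the USP genes for histones other than USP22, USP16, which acts on histone H2A, had 204, 158 and 149 counts in Nrp1-IP, 48, 70 and 75 in DCC-IP and 20, 44 and 32 in Input. In CPM the 3 groups did not overlap, and the rise over Input in Nrp1-IP was 2.02 on the log2 scale (adjusted p = 0.0657). USP14, a deubiquitinase of the proteasome, had 26, 34 and 20 counts in Nrp1-IP, 0, 1 and 4 in DCC-IP and 2, 20 and 7 in Input. DCC-IP was at or near the floor, and the difference between the receptors did not pass (adjusted p = 0.231). USP7, which deubiquitinates MDM2 and p53, ran the other way, with 376, 542 and 448 counts in Nrp1-IP below 1019, 759 and 1560 in Input (log2 fold change -1.77, adjusted p = 0.0623), and 1074, 462 and 701 in DCC-IP. The mRNAs of USP proteins that work with the partner WDR48 had few counts, at most 14 for USP1, 5 for USP12 and 34 for USP46.

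Some genes that did not pass the filter in any comparison were still seen in places. UBE2Q2 had 0 counts in the 3 Input libraries, which allows up to 0.339 CPM per library, 0, 7 and 3 in DCC-IP and 20, 2 and 22 in Nrp1-IP. USP10 had 4, 45 and 26 counts in DCC-IP against 6, 0 and 4 in Nrp1-IP, and USP18, the protease for ISG15, had 38 counts in DCC-IP replicate 2 and 3 at most elsewhere. At these counts, single libraries decide the level, and these genes were not tested in the main fits.

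Other genes of the pathway were taken from a list of 58 genes. Among 7 E1 enzymes and partners, 5 were tested in each comparison, and 2 were called in Nrp1-IP over Input, where 4.97% of all genes tested were called. UBA6, an alternative E1 for ubiquitin, was lower in Nrp1-IP than in Input, at 257 ± 29.2 against 949 ± 68.7 CPM (log2 fold change -1.80, adjusted p = 0.0173), and UBA2, a subunit of the SUMO E1, was higher, at 72.5 ± 14.8 against 18.2 ± 6.46 CPM (2.06, adjusted p = 0.0453, edgeR's quasi-likelihood test, n = 3 each). Of 9 genes for ubiquitin and its relatives, 4 to 6 were tested per comparison, and RPS27A, which encodes ubiquitin fused to a ribosomal protein, was lower in Nrp1-IP than in Input (-2.42, adjusted p = 0.0259). Among 29 deubiquitinases of other families, 21 to 23 were tested, and BAP1, a histone H2A deubiquitinase, was higher in DCC-IP than in Input (2.96, adjusted p = 0.0426), the single call in that list, 1 of 21 (4.76%, against 4.98% of all genes tested). Of 9 partners of USP proteins, 5 were tested in each comparison, and 2 were called in Nrp1-IP over Input (against the same 4.97%). G3BP1, a partner of USP10, and WDR20, a partner of USP12 and USP46, were lower in Nrp1-IP than in Input (-4.06 and -2.99, adjusted p = 0.035 and 0.0489). Of the SAGA partners of USP22, ATXN7 had 18 to 52 counts in all libraries, ATXN7L3 had 20 at most, and ENY2 had 146 in DCC-IP replicate 3 and 28 at most elsewhere. Of the 4 E2 genes outside the symbol pattern, 2 were tested in each comparison and neither was called by edgeR, 1 of them with an unadjusted p under 0.05 in each of the comparisons with DCC-IP.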

How the data were processed

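The authors isolated RNA after pulldown of DCC or Nrp1 from SH-SY5Y lysates cleared of nuclei, amplified the cDNA, and used HISAT2 2.1.0 for alignment and HTSeq 0.11.0 for counting. Raw counts per gene were deposited, without normalization. The submitters' processing notes name the build hg19. The annotation and strand setting are not given in the sources used here, so reads of overlapping or antisense genes may be misassigned. The 5 HTSeq summary lines were left out, among them reads on no gene, 48.7% to 55.8% of the reads of a library.

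Members and lists were chosen with earlier results of these data known. All 85 symbols matched RefSeq entries of GRCh38.p14, used for gene type and chromosome alone. Each pair of groups was compared on its 6 libraries in edgeR 4.0.16 (R 4.3.3) with filterByExpr (minimum count 10), TMM, glmQLFit and glmQLFTest, adjusted by Benjamini-Hochberg over all genes tested, and called at an adjusted p under 0.05. The SE is the log2 fold change divided by the square root of F, and 95% intervals use the fit's degrees of freedom. CPM levels use TMM over all 9 libraries. Intervals and floors cover counting error or library spread only, and the sources describe no molecular identifiers. The fit was run on simulated data as a check of the code, and its sensitivity at the spread of these libraries is not reported here.

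Genes named are those called in any comparison, the 5 with the highest mean CPM in each group, USP22, up to 3 genes per role by smallest p, and pathway genes that were called. The genes described by counts beside these were chosen after their values were seen. Replicate numbers were checked by correlating deviations from the group means over 7628 genes. Between DCC-IP and Input, each same-numbered pair correlated above 0.1 (0.117 to 0.421), and those libraries were taken as paired. The pairing is uncertain, since Input replicate 1 correlated better with DCC-IP replicate 2 (0.136) than with its own number (0.117). The limit of 0.1 was a choice, and the unpaired fit was kept as the main one with the blocked counts given beside it. Alternatives were RLE factors, library size only, MAP1B left out, no filter, a minimum of 10 counts per library, DESeq2 1.42.0, all 9 libraries in 1 fit, the replicate block, and each library left out. Figures used Python 3.11.15 with matplotlib 3.10.9. Some genes are not reported here.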

Additional observations from a re-analysis of the deposited data

Results flagged for a closer look

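In 3 genes the effects of the 2 pulldowns over Input differed from each other by the direct test of Nrp1-IP against DCC-IP. USP22 was below Input in DCC-IP (-1.32) and at 0.74 over Input in Nrp1-IP, a difference of 1.99 on the log2 scale. UBE2D4 was at -3.32 in DCC-IP and -0.32 in Nrp1-IP, a difference of 2.83. UBE2T was at 2.07 in DCC-IP and -1.21 in Nrp1-IP, a difference of -3.39. Adjusted p for these differences was 0.00303, 0.0103 and 0.0429 (edgeR's quasi-likelihood test). They restate the first comparison, since Input does not enter that test. By the same test, the UBE2T effects over Input were not called (adjusted p = 0.105 in DCC-IP and 0.327 in Nrp1-IP). Nor were those of USP22 (0.144) and UBE2D4 (0.707) in Nrp1-IP. The falls of USP22 and UBE2D4 in DCC-IP were called in the main fit. They passed under 4 and 10 of 14 alternatives, and both calls ended with MAP1B left out. The UBE2T difference was lost in each of the 6 fits that left out 1 library and with MAP1B left out. Groups of 3 libraries were not screened for outlying libraries.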

How the results depend on the processing

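USP22 in Nrp1-IP over DCC-IP passed the threshold under all 14 alternatives (log2 fold change 1.93 to 2.46, highest adjusted p = 0.0420 by edgeR or DESeq2). Its high rank in Nrp1-IP was known when the genes were chosen, and these fits reuse the same libraries, so they are not independent evidence. The other calls each failed under at least 1. In Nrp1-IP over DCC-IP, the genes called higher in Nrp1-IP numbered 3 against 2, UBE2G1 being added, with at least 10 counts in every library, no filter, library size only, MAP1B left out, DESeq2, all 9 libraries or the replicate block. The genes called higher in DCC-IP numbered 0 with MAP1B left out, 2 with at least 10 counts in every library and 3 with DESeq2, against 1. In DCC-IP over Input, genes called higher (3) numbered 1 with RLE factors or MAP1B left out, 5 with at least 10 counts in every library and 6 with DESeq2, and genes called lower (2) numbered 1 with RLE factors, library size only or no filter and 0 with MAP1B left out. In Nrp1-IP over Input, genes called higher (2) numbered 6 with library size only, 4 with no filter, 5 with at least 10 counts in every library, 6 with DESeq2 and 1 with all 9 libraries, and genes called lower (1) numbered 2 with RLE factors, 3 with no filter, 2 with at least 10 counts in every library, 3 with DESeq2 and 0 with all 9 libraries. With the replicate block they numbered 2, USP7 passing at an adjusted p of 0.0489, and between the receptors UBE2G1 passed (1.50, adjusted p = 0.0104). In these 2 comparisons the numbers were not taken as pairing, since the lowest same-number correlation was 0.0989 between the receptors, where each library still correlated best with its own number, and -0.0043 for Nrp1-IP and Input, where Nrp1-IP replicate 2 did not. The block ended no call in DCC-IP over Input. The causes were not tested.

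With 1 library left out, calls ranged from 1 to 3 higher and 0 to 1 lower between the receptors, 0 to 2 higher and 0 to 2 lower in DCC-IP over Input, and 0 to 2 higher and 0 to 2 lower in Nrp1-IP over Input. In those edgeR fits an unadjusted p under 0.05 was reached by 3 to 6 and 1 to 4, 5 to 11 and 1 to 5, and 8 to 14 and 2 to 7 genes. Signs turned only for changes that were not called. USP2 between the receptors (-0.11) was 0.0077 with RLE factors, 0.0889 with library size only, 0.163 with MAP1B left out, 0.0610 with no filter, 0.119 with at least 10 counts in every library, 0.0079 with DESeq2, 0.0251 with all 9 libraries and -0.14 to 0.26 with 1 library left out. In DCC-IP over Input, UBE2G1 ran from -1.03 to 0.0187 and UBE2W from -0.0896 to 1.76 with 1 library left out. In Nrp1-IP over Input, library size only gave 0.0978 for UBE2D4 and 0.0546 for UBE2W. The median of all genes moved from -0.27 to -0.02 between the receptors with MAP1B left out, and from 0.16 to 0.48 and 0.06 to 0.44 over Input with library size only. Genes under about 10 counts a library rest on few reads, and those that failed the filter were not tested in the main fits.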
